A study of Mus musculus with 16 samples.

Results

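The genes that changed in RNA level as mouse oocytes grew from 40–45 to 50–55 μm in diameter were examined. This is the growth step in which CpG-dense methylation first appears. The members were the 9951 of 25965 genes in the expression table that reached 0.5 RPKM (reads scaled to the exon length of the gene and to the mapped reads of the library) in at least 2 of the 4 libraries of these size classes. The 4 libraries, of 16 samples in the series, were total RNA from pools of sorted, wild-type C57BL/6 oocytes (C57BL/6Babr in the methods text), with 2 libraries (A and B) per class. The females were 7–10 days old for 40–45 μm oocytes and 10–15 days old for 50–55 μm oocytes in the list of libraries, and 7–12 and 9–14 days old in the methods text, so the effects of size and of age cannot be told apart. Neither source says that libraries A and B came from separate animals. The p-values below then measure only the spread between the libraries of a class, which may be technical. The RNA libraries of 10–30 and 60–65 μm entered the main fit, so the spread behind its SE and p-values is that of 8 libraries. Beyond this, they and the library of fully grown germinal vesicle (GV) oocytes were used where named. The whole-read steps of low values gave scaling totals of 150000000 and 191000000 reads for the 40–45 μm libraries and of 118000000 and 155000000 reads for the 50–55 μm libraries.

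A growing oocyte is arrested in meiosis and makes the RNA and protein that it will need for maturation, fertilisation and the first cleavages, in exchange with the granulosa cells around it. Its DNA begins nearly free of methylation and is methylated during growth by DNMT3A with its cofactor DNMT3L, at sequence that transcription has passed through and from which histone H3K4 methylation has been removed. Values in RPKM are shares of a library, so the RNA content of each oocyte was not measured. Fewer cells of a type and less RNA per cell cannot be told apart in such pools.

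Between 40–45 and 50–55 μm, 471 genes rose (4.73% of those tested) and 265 fell (2.66%), by limma with an adjusted p under 0.05. Families expressed in oocytes, among them Oogenesin, Obox and Nlrp9 genes, were among the risen genes, together with Bmp15 and Dnmt3l. The fallen genes included the oocyte transcription factors Sohlh1 and Figla, genes of meiotic prophase and of the piRNA pathway, and some genes of ribosomal and respiratory proteins. Most changes were small. The median risen gene increased 1.63-fold (log2 difference 0.71) and the median fallen gene decreased 1.52-fold (−0.60), against a median of 0.01 over all tested genes. Of the risen genes, 101 gained at least 2-fold and 4 at least 4-fold, whereas 11 of the fallen genes lost at least 2-fold and 0 lost 4-fold. In each of the 736 called genes the 2 libraries of one class lay above the 2 of the other, as they did in 3282 tested genes upwards and 2561 downwards. The remaining 9215 genes were not called, and 2736 genes had an unadjusted p under 0.05. The filter on low values was passed only through the 50–55 μm libraries by 172 genes, of which 86 rose, and only through the 40–45 μm libraries by 79 genes, of which 27 fell. Such genes had to differ to be tested, and among those described below they are Steap4, Mbd3l2, Parp8, Oas1f, Htr1d and Cyp19a1 of the risen and Tex11, Hormad1, Prdm9, Kdm5b, Dcpp3 and Trh of the fallen genes. Library A lay above library B in 66.9% (40–45 μm) and 78.8% (50–55 μm) of risen genes and in 24.9 and 28.3% of fallen genes, compared with 41.8 and 50.9% of all tested genes. The part of this difference between libraries in the calls was not tested. The calls rest on few libraries. Without 40–45 μm library B or without 50–55 μm library A, 0 genes were called by limma, with 1946 and 1474 genes at an unadjusted p under 0.05. Without 40–45 μm library A, 323 genes rose and 89 fell, and without 50–55 μm library B, 84 rose and 17 fell. A fit of the 4 libraries alone called 433 risen and 312 fallen genes, of which 362 and 205 were called in the main fit too. In that fit, 12 of the 94 called genes named by rule were no longer called. Among the 12 were Obox2, Tbpl2, Kdm5b, Nlrp9c, Nlrp4a, Mapk3, Mcm10 and Tsc1. With no filter on low values, with adjustment over 19144 genes, 41 of the 94 were not called, among them Bmp15, Obox2, Dnmt3l, Sycp3, Rps23, Mov10l1, Mael and Hist1h2bk.

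**Figure D1:**
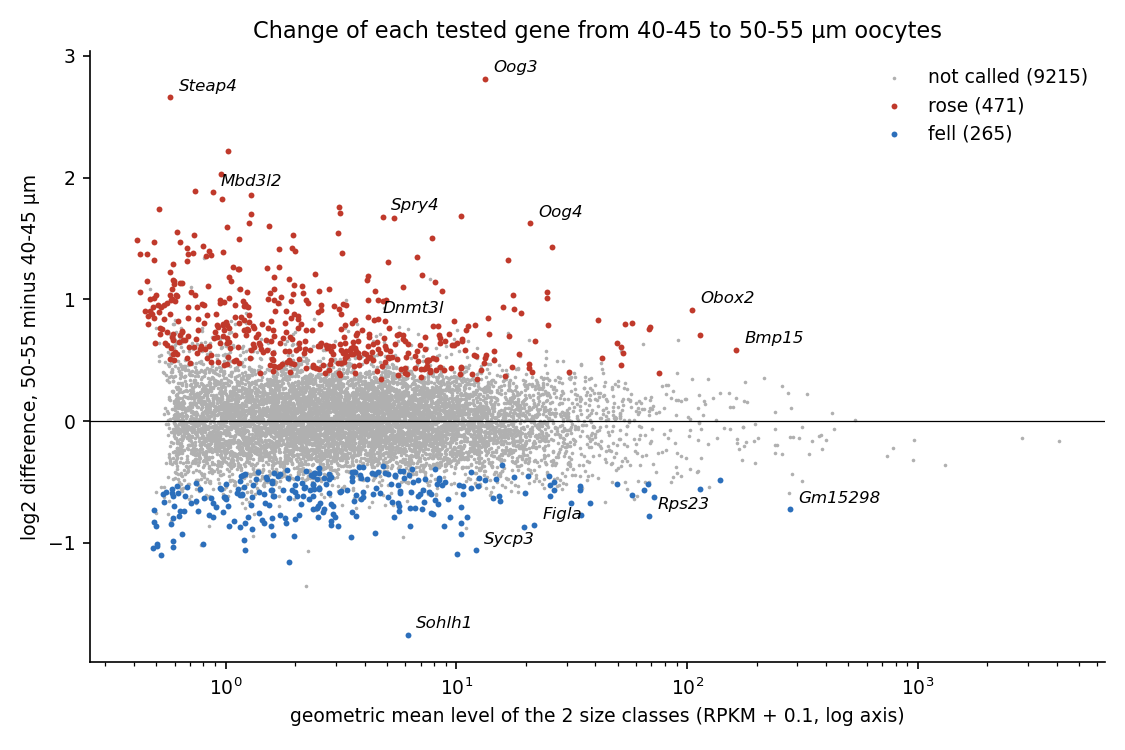
Log2 difference of each of the 9951 tested genes (50–55 minus 40–45 μm, vertical axis) against its mean level in RPKM plus 0.1 (log axis), with the 471 risen and the 265 fallen genes in colour. The 13 labelled genes are described in the text, and the risen genes reach further from 0 than the fallen genes.

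Several of the largest rises were in the Oogenesin genes and their relatives, members of the PRAME-like family of leucine-rich repeat proteins expressed in oocytes. Oog3 lay at 7.45 and 2.76 RPKM in 40–45 μm libraries A and B and at 40.1 and 27.3 RPKM in the 50–55 μm libraries, a log2 difference of 2.81 ± 0.42 (SE, n = 2 libraries per class, adjusted p = 0.0179). Oog4 increased from 13.6 and 9.84 to 38.4 and 34.6 RPKM (1.63 ± 0.17, adjusted p = 0.010). Oog2 increased from 4.97 and 3.30 to 11.8 and 9.61 RPKM (1.35 ± 0.20, adjusted p = 0.0179). In each of these genes both 50–55 μm libraries lay above both 40–45 μm libraries, as in every called risen gene. Library A was above library B within each class. Of the 14 genes on the list of Oogenesin and PRAME-like genes 7 were tested, and 5 of these rose (71.4%, against 4.73% of all tested genes), with a median log2 difference of 1.35. This list and those below were drawn up with earlier results of these data known, which limits what such shares show. The other members that rose were Oog1 (48.4 and 38 to 76.9 and 75.3 RPKM) and Pramef17 (1.39 and 0.776 to 3.56 and 2.55 RPKM). Pramef8 (0.24, adjusted p = 0.175) and Pramef12 (0.28, adjusted p = 0.107) did not pass the test.

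Oog4, Oog3 and Oog2 lay in the longest run of neighbouring risen genes, 11 genes within chr4:143437164-144333465 (GRCm38), with log2 differences from 0.77 to 2.81. The run also held Pramef17, C87977 and 6 predicted genes named Gm, such as Gm13023 and Gm13084. The similarity of their transcripts was not measured. The aligner kept at most 1 alignment per read, so reads of similar genes may have been divided, and the single values of the genes in this run are uncertain. The 250 bases before the RefSeq starts of 3 of them are shown because these promoters hold few CpG dinucleotides (in capitals) and are alike. They lie at chr4:143450325-143450574 (minus strand), chr4:144162652-144162901 (minus strand) and chr4:144190467-144190716 (plus strand) of GRCm38.p6.
Oog4: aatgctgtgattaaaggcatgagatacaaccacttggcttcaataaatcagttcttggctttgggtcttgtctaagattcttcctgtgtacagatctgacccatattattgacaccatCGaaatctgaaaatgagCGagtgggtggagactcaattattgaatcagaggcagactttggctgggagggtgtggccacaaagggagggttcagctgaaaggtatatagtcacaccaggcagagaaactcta
Oog3: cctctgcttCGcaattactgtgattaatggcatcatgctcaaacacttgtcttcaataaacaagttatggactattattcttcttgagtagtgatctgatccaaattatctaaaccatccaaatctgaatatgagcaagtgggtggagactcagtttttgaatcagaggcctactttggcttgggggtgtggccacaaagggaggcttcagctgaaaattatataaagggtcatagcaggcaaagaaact
Oog2: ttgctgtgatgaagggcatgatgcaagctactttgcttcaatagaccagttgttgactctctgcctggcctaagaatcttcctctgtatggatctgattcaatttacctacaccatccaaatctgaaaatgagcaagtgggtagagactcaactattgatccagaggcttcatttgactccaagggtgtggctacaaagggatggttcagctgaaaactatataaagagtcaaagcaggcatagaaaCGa
They contained 2, 1 and 1 CpG, respectively. In pairwise alignment 76.9% of positions were identical between Oog4 and Oog2, 73.5% between Oog4 and Oog3, and 71.4% between Oog3 and Oog2. Between these 3 promoters and those of Sohlh1, Figla and Tbpl1, printed below, 42.2 to 48.3% of positions were identical.

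Beyond the Oogenesin genes, the largest rises were spread over genes of varied roles. Steap4, a metalloreductase, was near the detection floor at 40–45 μm (0.108 and 0.142 RPKM) and reached 1.72 and 1.01 RPKM (2.66 ± 0.26, adjusted p = 0.010). Spry4, an inhibitor of receptor tyrosine kinase signalling, increased from 2.65 and 2.46 to 8.25 and 8.81 RPKM (1.68 ± 0.19, adjusted p = 0.0115). Wls, the carrier that brings Wnt ligands to the cell surface, increased from 0.751 and 0.488 to 2.38 and 1.87 RPKM (1.62 ± 0.20). In these genes both 50–55 μm libraries lay above both 40–45 μm libraries, which the rule for naming the largest rises required. The 12 largest rises among called genes with a mean of at least 1 RPKM in the higher class, clone and model names left out, were completed by Mbd3l2, an MBD3-like gene, the MAGE family gene Magea10, Prr18, Syde1, the ADP-ribosyltransferase Parp8 and A1bg, beside Oog3, Oog4 and Pramef17. Their log2 differences lay between 1.39 and 2.81. Of the 12, Steap4, Mbd3l2 and Parp8 passed the filter only through the 50–55 μm libraries, so they had to differ to be tested. In units of RPKM the 8 largest gains among called genes were those of Bmp15, Obox2, Obox1, Oog1, Oog3, CT954323.1, E330021D16Rik and Gm13084.

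Among called genes with a symbol that is no clone or model name and a mean of at least 1 RPKM in the higher class, the 12 largest falls were led by Sohlh1, a helix-loop-helix factor needed by the oocytes of primordial and primary follicles. It was at 8.99 and 13.4 RPKM at 40–45 μm and at 2.98 and 3.51 RPKM at 50–55 μm (−1.75 ± 0.22, adjusted p = 0.0139), a 3.37-fold decrease. Cstb, an inhibitor of cathepsins, decreased from 2.63 and 2.75 to 1.09 and 1.25 RPKM (−1.16 ± 0.18, adjusted p = 0.0179). Eif5a2, a paralogue of the translation factor eIF5A, decreased from 1.44 and 1.82 to 0.681 and 0.801 RPKM (−1.06 ± 0.16, adjusted p = 0.0179). Malat1, an abundant nuclear non-coding RNA, decreased from 13.5 and 14.9 to 6.89 and 8.21 RPKM (−0.93 ± 0.13, adjusted p = 0.0175). The size classes did not overlap in any of these 4 genes, as the rule for naming them required. The other members of the 12 were Maged1, Sycp3, Dcpp3, Marcksl1, Hist1h4b, Fkbp9, Cox4i2 and Ift27, with log2 differences between −1.09 and −0.92. Of the 8 largest losses in RPKM among called genes, 6 were in non-coding or predicted transcripts, of which Gm15298 on the X chromosome came first (333 and 379 to 199 and 240 RPKM). The other 2 were Rps23 and mt-Nd3.

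**Figure D2:**
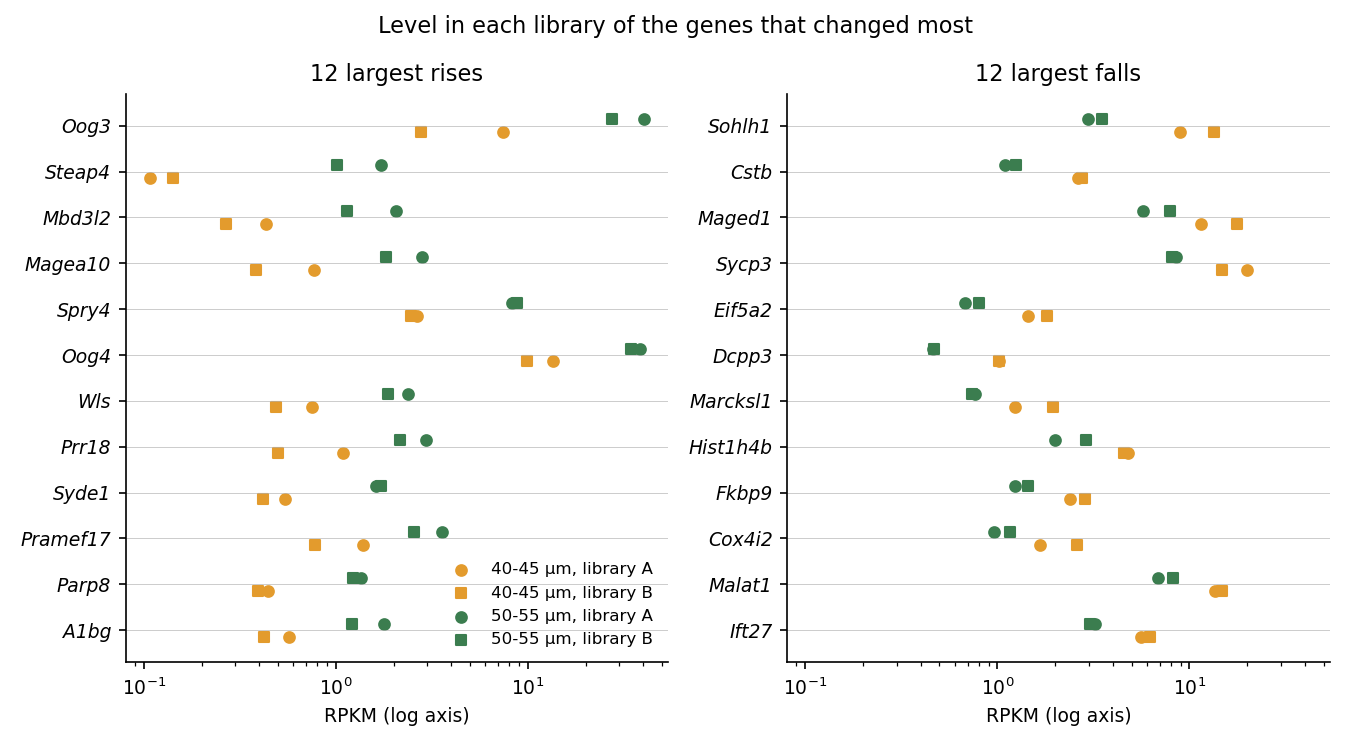
RPKM (log axis) in each of the 4 libraries of the 12 genes with the largest rise and the 12 with the largest fall on the log2 scale among called genes with a mean of at least 1 RPKM in the higher class and no clone or model name, with 1 point per library. In all 24 genes the points of the 50–55 μm libraries lie wholly on one side of those of the 40–45 μm libraries, as the choice of genes required.

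Transcription factors of the germ line moved in both directions. Of 18 tested, 4 rose (22.2%), 3 fell (16.7%) and 11 were not called (median 0.07), where 4.73% of all tested genes rose and 2.66% fell. The risen factors were homeobox genes expressed in oocytes. Obox2 increased from 88.6 and 63.5 to 161 and 129 RPKM (0.92 ± 0.18, adjusted p = 0.0249), and Sebox from 7.96 and 6.46 to 13.9 and 12 RPKM (0.82 ± 0.13, adjusted p = 0.0186). Obox1 and Obox5 lay beside Obox2 in a run of 4 risen genes on chromosome 7 and rose by 0.79 and 0.64. The Obox genes are similar in sequence, so the same uncertainty applies to their single values. Figla, which activates the zona pellucida genes, decreased from 28.7 and 28.8 to 16.3 and 16 RPKM (−0.85 ± 0.12, adjusted p = 0.0172). Tbpl2, the oocyte paralogue of the TATA-binding protein, decreased from 12.9 and 13.4 to 10.4 and 9.54 RPKM (−0.42 ± 0.10, adjusted p = 0.0459). Levels of other factors were not called as different. Nobox had 44.4 and 55.5 RPKM at 40–45 μm and 54.1 and 56.3 RPKM at 50–55 μm (0.13, 95% interval −0.12 to 0.38, adjusted p = 0.471). Lhx8 differed by 0.00 (95% interval −0.22 to 0.23, adjusted p = 0.987). Sohlh2, the partner of Sohlh1, had a difference of −0.69 and missed the threshold (adjusted p = 0.0631).

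The promoters of Sohlh1 and Figla are printed for comparison with those of the Oogenesin genes, since they hold more CpG. The 250 bases before their RefSeq starts lie at chr2:25847249-25847498 (minus strand) and chr6:86016941-86017190 (plus strand) of GRCm38.p6, with each CpG in capitals.
Sohlh1: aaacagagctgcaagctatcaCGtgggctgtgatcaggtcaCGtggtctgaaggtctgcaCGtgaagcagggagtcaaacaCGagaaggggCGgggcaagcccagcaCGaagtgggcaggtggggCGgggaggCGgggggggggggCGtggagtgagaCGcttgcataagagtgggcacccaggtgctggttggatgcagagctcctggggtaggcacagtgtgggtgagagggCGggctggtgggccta
Figla: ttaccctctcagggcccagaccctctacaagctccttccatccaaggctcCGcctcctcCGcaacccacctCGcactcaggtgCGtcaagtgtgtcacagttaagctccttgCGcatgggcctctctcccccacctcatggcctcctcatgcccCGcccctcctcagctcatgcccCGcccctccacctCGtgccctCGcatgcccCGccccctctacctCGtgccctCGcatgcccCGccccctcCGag
They contained 11 and 14 CpG. These promoters and those of the Oogenesin genes were chosen for their CpG, so the contrast does not describe fallen and risen genes as sets. From 250 bases before to 50 bases after the gene start, fallen genes had a median of 16 CpG, below the 20 of all tested genes. Risen genes had a median of 10. At most 5 CpG were found at 13.6% of fallen genes and at 11.9% of all tested genes.

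Of 12 tested members of the oocyte NLRP family, which includes genes needed by the early embryo, 4 rose (33.3%, against 4.73% of all tested genes) and 0 fell (median 0.29). Nlrp9c increased from 6.68 and 4.0 to 13.3 and 10.3 RPKM (1.14 ± 0.25, adjusted p = 0.0341). Nlrp9b, Nlrp4a and Nlrp9a rose by 0.79, 0.56 and 0.54. Nlrp5 and Nlrp14, the most abundant of those named here, had differences of −0.15 and −0.16 and were not called. Of the zona pellucida and secreted factors Bmp15, the oocyte's growth factor for granulosa cells, was the 1 called among 11 tested (9.09%, median 0.04). Bmp15 increased from 139 and 124 to 210 and 192 RPKM (0.59 ± 0.11, adjusted p = 0.0234). Its partner Gdf9 had 501 and 561 RPKM at 40–45 μm and 538 and 544 RPKM at 50–55 μm (0.01, 95% interval −0.24 to 0.25). Zp2 (−0.32, adjusted p = 0.156) and Zp3 (−0.22, adjusted p = 0.337), which encode coat proteins of the egg, were not called. In the SMAD pathway, through which BMP and TGF-β ligands act, 2 of 19 tested genes rose (10.5%), Bmp15 itself and the co-receptor Tgfbr3 (1.42 and 1.34 to 2.42 and 2.23 RPKM), and 0 fell (median 0.20). In the Oas1 family Oas1f (0.301 and 0.237 to 1.31 and 0.651 RPKM) was called, but it passed the filter only through the 50–55 μm libraries, and 0 of the 4 members that did not depend on 1 class were called. No member of the 13 tested oocyte Fbxw genes was called (median 0.20).

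Of the DNA methylation machinery, 1 of 16 tested genes was called (6.25%, near the 7.40% of all tested genes called in either direction). Dnmt3l, the catalytically inactive cofactor of DNMT3A, increased from 3.65 and 2.70 to 6.21 and 5.35 RPKM, a 1.78-fold rise (adjusted p = 0.0366), and the size classes did not overlap. Dnmt3a, the de novo methyltransferase of oocytes, had 2.79 and 3.05 RPKM at 40–45 μm and 2.87 and 3.53 RPKM at 50–55 μm (0.10 ± 0.13, 95% interval −0.20 to 0.40, adjusted p = 0.650). Its groups overlapped. Dnmt3b, which is not required for oocyte methylation, increased in all 4 pairings of libraries, from 1.02 and 1.04 to 1.43 and 1.35 RPKM, and lay just outside the threshold (0.38, adjusted p = 0.0514). It was called with no scaling between libraries, with no trend in the variance, and with library letters A and B taken as pairs. The maintenance methyltransferase Dnmt1 was abundant in every library, at 398 and 486 RPKM at 40–45 μm and 402 and 454 RPKM at 50–55 μm (−0.06, adjusted p = 0.796). Uhrf1, its recruiter, differed by −0.19 (adjusted p = 0.359), and Dppa3 (Stella), which restrains it, by −0.50 (393 and 349 to 271 and 262 RPKM, adjusted p = 0.0934). Tet3, the dioxygenase that oxidises methylcytosine, had 14 and 17.2 RPKM at 40–45 μm and 18.4 and 24.7 RPKM at 50–55 μm (0.43, adjusted p = 0.359).

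Enzymes that write or remove the histone marks linked to methylation were mostly not called, as were 92.6% of all tested genes. Of 18 tested H3K4 enzymes 1 was called (5.56%, median 0.11). This was Kdm5b, an H3K4 demethylase that passed the filter only through the 40–45 μm libraries, so the 17 others held 0 calls. It decreased from 0.566 and 0.751 to 0.34 and 0.405 RPKM (−0.70 ± 0.14, adjusted p = 0.0276). Kdm1b, the demethylase required for methylation of several imprinted loci in oocytes, had 99.8 and 107 RPKM at 40–45 μm and 84.2 and 87.4 RPKM at 50–55 μm (−0.29, adjusted p = 0.122). Kdm1a (−0.07, adjusted p = 0.783), Kdm5a (−0.30, adjusted p = 0.134) and Kdm5c (0.08, adjusted p = 0.692) were likewise not called, and Kdm5d did not pass the filter. Setd2, the H3K36 methyltransferase for trimethylation, had 4.43 and 4.89 RPKM at 40–45 μm and 5.82 and 6.52 RPKM at 50–55 μm (0.38, 95% interval 0.06 to 0.69, adjusted p = 0.126), and 0 of 10 tested H3K36 enzymes were called (median 0.22). Of 34 genes for H3K9 and polycomb repression 1 fell (2.94%), Cbx3, which encodes HP1γ (1.06 and 1.04 to 0.669 and 0.713 RPKM).

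Genes of meiotic prophase, whose chromosome events are past in these arrested oocytes, fell where they were called. Of 23 tested, 6 fell (26.1%, against 2.66% of all tested genes) and 0 rose (median −0.12), but 3 of the 6 (Tex11, Hormad1 and Prdm9) passed the filter only through the 40–45 μm libraries. Of the 20 others 3 fell, to be read against the same 2.66%. Sycp3, a lateral element of the synaptonemal complex, decreased from 20.001 and 14.8 to 8.57 and 8.08 RPKM (−1.06 ± 0.22, adjusted p = 0.0276). Tex11, a recombination factor on the X chromosome, decreased from 0.793 and 0.656 to 0.310 and 0.332 RPKM (−0.99 ± 0.17, adjusted p = 0.0193). Smc1b, the meiotic cohesin subunit, decreased from 14.4 and 13.1 to 7.29 and 8.27 RPKM (−0.84 ± 0.14, adjusted p = 0.0195). The other called genes were the axis gene Hormad1, the central element gene Syce1 and Prdm9, which sets recombination hotspots through H3K4 methylation. Members did not all move alike. Sycp1, the transverse filament, had 5.40 and 2.96 RPKM at 40–45 μm and 2.94 and 2.80 RPKM at 50–55 μm (−0.49, adjusted p = 0.260). Msh4, a mismatch repair homologue of meiosis, had a difference of 0.39 (adjusted p = 0.0910).

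Of 23 tested genes for piRNA and transposon defence, 4 fell (17.4%, against 2.66% of all tested genes) and 0 rose (median −0.02). Mov10l1, the helicase that processes piRNA precursors, decreased from 3.35 and 4.67 to 1.93 and 2.42 RPKM (−0.87 ± 0.18, adjusted p = 0.0267). Fkbp6, a co-chaperone of the pathway, decreased from 11.1 and 13 to 6.81 and 7.27 RPKM (−0.79 ± 0.15, adjusted p = 0.0223). Mael (−0.53) and Piwil2 (−0.48), which encode a nuage component and a PIWI protein, fell less.

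Genes of ribosomal proteins and of oxidative phosphorylation lay mostly below 0, although few members passed the test. Of 86 cytosolic ribosomal protein genes 84 lay below 0 (97.7%, compared with 47.8% of all tested genes), and 8 were called as fallen (9.30%, compared with 2.66%; median −0.42). Their summed level was 2337 and 2379 RPKM at 40–45 μm and 1840 and 1712 RPKM at 50–55 μm, so the classes did not overlap. Rps23 decreased from 88.3 and 89.2 to 52.7 and 52.3 RPKM (−0.78 ± 0.16, adjusted p = 0.0276). Of 83 nuclear genes for oxidative phosphorylation 82 lay below 0 (98.8%) and 8 fell (9.64%, median −0.36), with summed levels of 1090 and 1108 RPKM at 40–45 μm and 896 and 843 RPKM at 50–55 μm. Cox6c, a subunit of cytochrome oxidase, decreased from 9.29 and 8.69 to 5.89 and 5.51 RPKM (−0.67 ± 0.12, adjusted p = 0.0207), and Ndufa1, a subunit of complex I, from 19.8 and 18.4 to 12.5 and 11.9 RPKM (−0.66 ± 0.12). The 74 mitochondrial ribosomal protein genes had a median of −0.16 with 2 fallen members (2.70%). The 60 translation initiation and elongation factors had a median of −0.07, and 1 fell (1.67%). Of the 75 splicing factors 3 fell (4.0%, against 2.66% of all tested genes; median −0.14), among them Srsf9 (8.88 and 9.45 to 6.01 and 6.32 RPKM), an SR protein. The 13 transcripts of the mitochondrial genome all lay below 0, with a median of −0.43 and 1 fallen member, mt-Nd3. However, the medians of single pairings of libraries ran from −0.99 to 0.22, and so spanned 0. Their summed level was 953 and 1399 RPKM in 40–45 μm libraries A and B and 710 and 991 RPKM at 50–55 μm, so the classes overlapped.

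Differences went with transcript length. Tested genes of known exon length were divided into 4 nearly equal groups by that length. In the group of shortest genes (165–2619 bases) the median difference was −0.11 and 5.01% fell, whereas in the group of longest genes the median was 0.09 and 0.54% fell. The share that rose varied less, from 5.68% in the shortest group to 4.38% in the longest. Libraries of the same class differed with length too. The median of A minus B went from 0.046 in the shortest to −0.034 in the longest group at 40–45 μm, and from 0.048 to −0.032 at 50–55 μm. The median exon length was 1754 bases for the ribosomal protein genes and 1808 bases for the oxidative phosphorylation genes, against 4335 bases over all tested genes. The part of length in the medians of these lists was not tested.

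Of 56 replication-dependent histone genes 2 rose (3.57%, against 4.73% of all tested genes) and 3 fell (5.36%, against 2.66%), with a median of −0.23 and 69.6% below 0 (47.8% of all). Hist1h2bk increased from 20.01 and 14 to 39.1 and 32.6 RPKM (1.06 ± 0.21, adjusted p = 0.0241) and its neighbour Hist1h2ah from 1.96 and 1.53 to 3.28 and 3.73 RPKM. Hist1h4b, Hist2h2bb and Hist1h2al fell by 0.95, 0.86 and 0.46 on the log2 scale. Histone genes share sequence, so their single values are uncertain too. In nuclear transport, 2 of 53 tested genes rose and 2 fell (3.77% each, median 0.01). The GTPase Ran decreased from 30.4 and 31.8 to 20.1 and 21.1 RPKM (−0.62 ± 0.10, adjusted p = 0.0189) and its activator Rangap1 from 9.20 and 11.1 to 5.54 and 6.49 RPKM (−0.76 ± 0.12, adjusted p = 0.0180), whereas the exportin Xpo4 increased from 1.96 and 1.94 to 3.23 and 3.06 RPKM (0.64 ± 0.09).

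Of 14 tested genes that are imprinted through maternal germline methylation, 2 rose (14.3%) and 1 fell (7.14%, median 0.03), against 4.73 and 2.66% of all tested genes. Mest increased from 7.84 and 7.30 to 12.3 and 11.5 RPKM (0.62 ± 0.10, adjusted p = 0.0179) and Usp29 from 1.48 and 1.04 to 2.90 and 2.52 RPKM (1.04 ± 0.17, adjusted p = 0.0189). Impact decreased from 3.68 and 3.49 to 2.14 and 2.28 RPKM (−0.70 ± 0.10, adjusted p = 0.0179).

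In the lists that follow, the share called lay below the 7.40% of all tested genes. Of genes for meiotic maturation, 1 of 31 rose, the ERK kinase Mapk3 (18.0 and 18.4 to 23.9 and 25 RPKM). Of the spindle and anaphase-promoting complex genes, 1 of 40 rose, the checkpoint kinase Bub1b (44.0 and 39.2 to 67.9 and 61.2 RPKM). In DNA replication 1 of 50 rose (Mcm10), and in the Kit, PI3K and mTOR pathway 1 of 27 rose, Tsc1, an inhibitor of mTOR complex 1. In 10 of the 41 gene lists no member was called, including 42 proteasome subunits (median −0.19), 34 aminoacyl-tRNA synthetases (−0.07), 33 genes of glycolysis, pyruvate and the citrate cycle (−0.08) and 29 genes for deadenylation and decay (0.09).

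**Figure D3:**
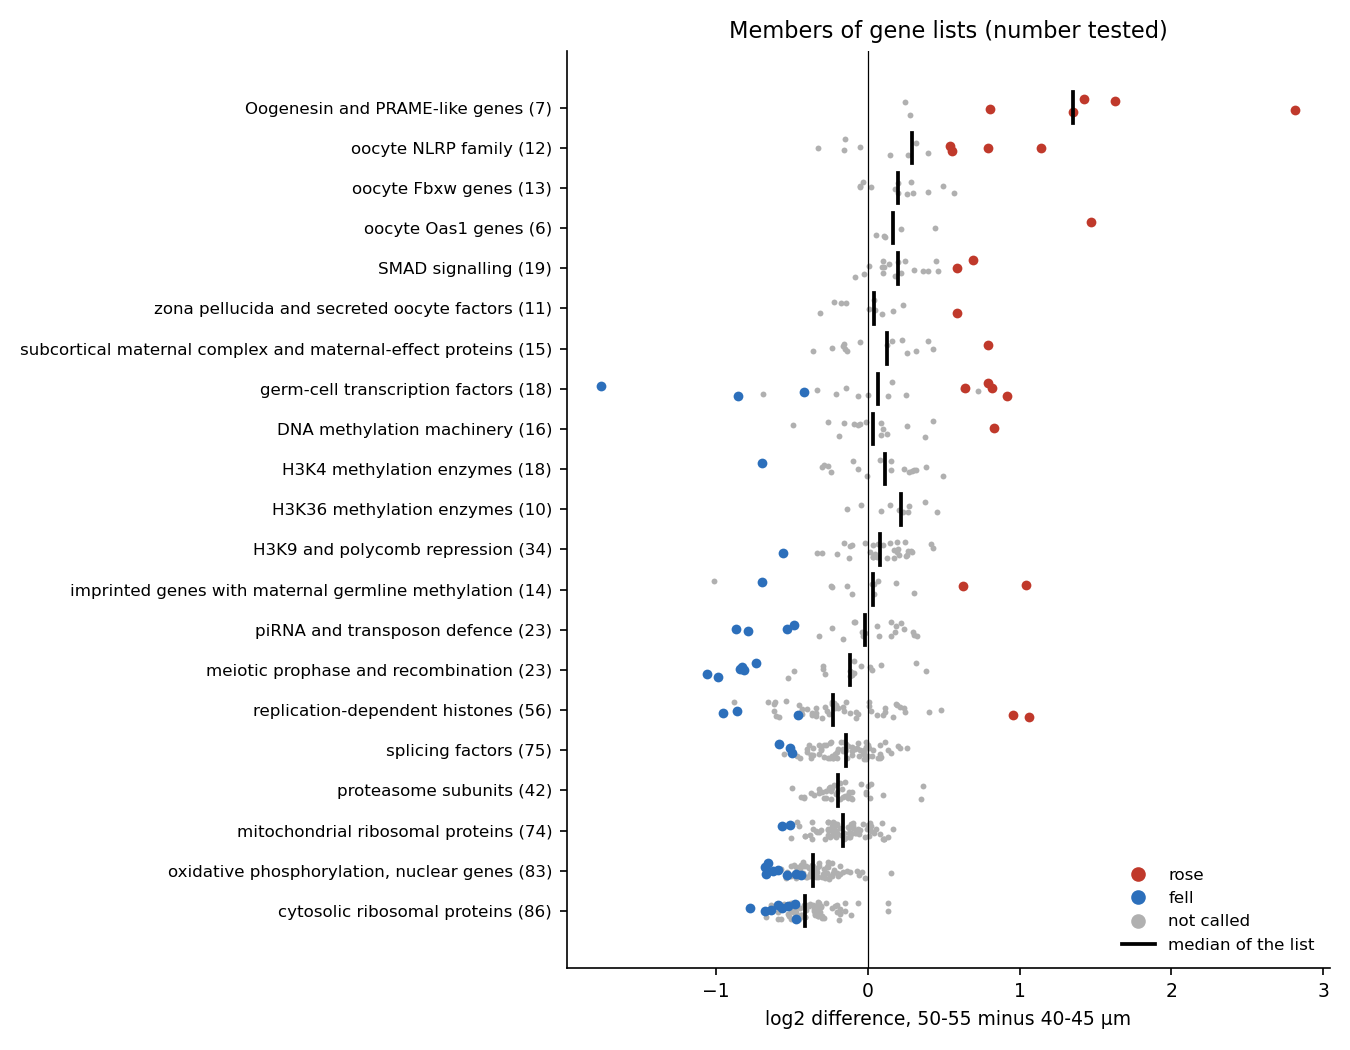
Log2 difference (50–55 minus 40–45 μm) of each tested member of the gene lists, with 1 point per gene, called genes in colour and the median of each list marked. The Oogenesin list lies furthest to the right, with a median of 1.35, and the cytosolic ribosomal and oxidative phosphorylation lists lie left of 0 with medians of −0.42 and −0.36.

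Risen genes had fewer CpG around their starts than the other tested genes. In the 300 bases from 250 before to 50 after the start given in the table, read from the GRCm38 genome, the median number of CpG was 10 in risen genes, 16 in fallen genes and 20 in all tested genes. At most 5 CpG were found at 158 of the 471 risen genes (33.5%), at 36 of the 265 fallen genes (13.6%) and at 1187 of all 9951 (11.9%). Seen the other way, 13.3% of the genes with at most 5 CpG rose, against 5.25, 3.31 and 2.63% of genes with 6–15, 16–25 and over 25 CpG, while the share that fell lay between 1.92 and 3.70% in all 4 classes. Neighbouring family members may have similar promoters, as Oog4, Oog3 and Oog2 do, and are not independent. Outside runs of neighbouring called genes, 111 of 393 risen genes (28.2%) had at most 5 CpG, compared with 11.6% of all such genes. Among genes with a mean of at least 1 RPKM the share was 32.5% in risen genes (111 of 342) and 10.8% in all. The motif TAATTG, bound by NOBOX, was present on either strand in the 250 bases before the start in 41 risen genes (8.70%), 10 fallen genes (3.77%) and 506 of all tested genes (5.09%). A match of these letters does not show binding.

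**Figure D4:**
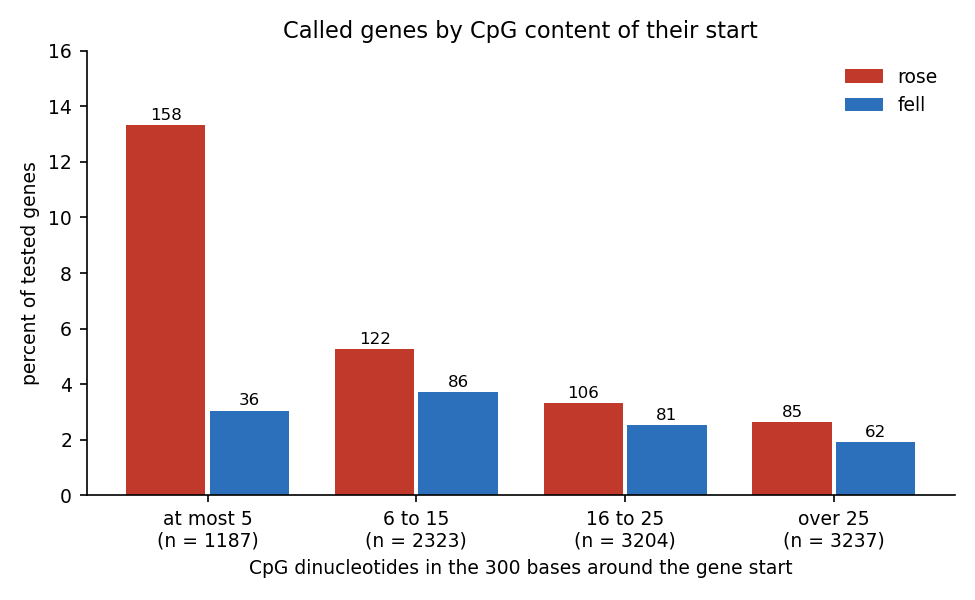
Percent of tested genes that rose and that fell (vertical axis, from 0) in 4 classes of the number of CpG dinucleotides in the 300 bases around the gene start. The share that rose is highest, at 13.3%, in the class with at most 5 CpG and lowest, at 2.63%, in the class with over 25, and the share that fell stays under 4% in each.

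Of the risen genes, 78 lay in 31 runs of neighbouring genes that all rose (16.6%), and of the fallen genes 23 lay in 11 such runs (8.68%). A counted run of risen genes on chromosome 11 held 2 entries of the same symbol, Gm11665. How many runs the numbers of called genes alone would give was not tested. Beside the Oogenesin run, 4 risen genes from Oog1 to CT485612.2 lay within chr12:87602688-88286055, and Nlrp9c, Nlrp4a and Nlrp9a lay within chr7:26322473-26575615. The longest run of fallen genes held Ppp2cb, Ubxn8 and Gsr on chromosome 8. Protein-coding genes made up 85.4% of risen, 82.3% of fallen and 86.6% of all tested genes, and genes of the X chromosome made up 5.52, 6.79 and 3.15%.

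DNA methylation at the changed genes was read from the reduced representation bisulphite (RRBS) libraries of the same size classes, 2 per class, which were other libraries than those of RNA. Within 1000 bases of the gene start, at least 5 cytosines with 5 calls or more in every library were present at 249 risen genes (52.9%), 171 fallen genes (64.5%) and 7406 of all tested genes (74.4%). Because these shares are below 80%, a comparison of the sets is void, and the values are given for measured genes only. Starts were nearly free of methylation at both sizes, with medians from 0.32 to 0.71% in every library and set. A gain of 10 percentage points or more between every 40–45 and every 50–55 μm library was seen at 2 risen genes, 3 fallen genes and 32 of all 7406 starts (0.43%). At S1pr3, a sphingosine 1-phosphate receptor gene that rose, the start had 1.05 and 2.77% at 40–45 μm and 24.1 and 18.9% at 50–55 μm. At Htr1d, a serotonin receptor gene that rose, it had 0.835 and 0% and then 18.6 and 13.8%, from 7 to 15 cytosines. The fallen genes of this kind were Tbpl1, Trh and Mcf2. Gene bodies were measured in 38.4% of all tested genes, 42.25% of risen and 27.55% of fallen genes. A comparison of the sets is void here too. Measured bodies gained more widely than measured starts, although the genes measured were not the same. At 50–55 μm the median body was methylated at 12.9 and 15.8% over 3823 measured genes, compared with 2.04 and 1.48% at 40–45 μm. In the 199 measured risen genes it was at 1.75 and 1.67% and then 10.6 and 14.6%, and in the 73 measured fallen genes at 1.63 and 0.876% and then 3.74 and 8.94%.

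Tbpl1, a paralogue of the TATA-binding protein, was the one of these 3 fallen genes whose start rested on most cytosines, 51 to 90 per library. Its start was methylated at 0.594 and 0.518% at 40–45 μm and at 21.1 and 12.1% at 50–55 μm. Its RNA decreased from 2.52 and 2.57 to 1.73 and 1.75 RPKM (−0.54 ± 0.10, adjusted p by limma = 0.0227). The classes overlapped in neither measure, but this followed from its choice as a called gene whose start gained in every pairing. A link between the 2 measures was not tested. The 250 bases before its RefSeq start, which lies 491 bases from the start in the table, are at chr10:22731448-22731697 (minus strand, GRCm38.p6) and hold 19 CpG, in capitals.
Tbpl1: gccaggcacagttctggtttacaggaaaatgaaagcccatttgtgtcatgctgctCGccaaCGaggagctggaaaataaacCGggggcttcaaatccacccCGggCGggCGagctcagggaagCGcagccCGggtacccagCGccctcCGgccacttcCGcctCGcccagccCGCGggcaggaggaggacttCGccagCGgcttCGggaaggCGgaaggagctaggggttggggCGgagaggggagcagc

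The direction of the changes was compared with size classes that the step does not use. The difference between 60–65 and 10–30 μm shares no library with the step. By it, 470 of the 471 risen genes rose (32.0% of all tested genes did) and 264 of the 265 fallen genes fell (29.8% of all did), with medians of 1.85 and −1.34. These libraries entered the same fit and share its estimate of the spread. In a fit of the 4 libraries of 10–30 and 60–65 μm alone the counts were 470 and 263, where 29.8 and 27.3% of all tested genes rose and fell. Before the step, from 10–30 to 40–45 μm, 355 of the risen genes rose (75.4%, against 12.6% of all tested genes) and 176 of the fallen genes fell (66.4%, against 8.46%), although this difference shares the 40–45 μm libraries with the step. After it, from 50–55 to 60–65 μm, 0 genes were called by limma among all tested, with 1242 at an unadjusted p under 0.05 and a lowest adjusted p of 0.196.

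In order of size, the median risen gene had 0.851 and 0.895, then 1.56 and 1.43, 2.84 and 2.55, and 3.79 and 3.48 RPKM, and it had 4.60 RPKM in GV oocytes, which are 1 column with no replicate. The median fallen gene had 4.98 and 4.84, then 3.07 and 3.21, 1.99 and 2.11, 1.72 and 1.77, and 1.41 RPKM. Neighbouring classes did not overlap in either series of medians, but the gap between 40–45 and 50–55 μm was fixed by the choice of the genes. In GV oocytes 380 of the 471 risen genes lay above both 60–65 μm libraries (80.7%, against 34.95% of all tested genes) and 243 of the 265 fallen genes below both (91.7%, against 46.2%). Sohlh1 ranged from 49.6 and 45.0 RPKM at 10–30 μm to 1.17 and 1.74 RPKM at 60–65 μm and 0.274 RPKM in GV oocytes. Dnmt3l ranged from 0.825 and 0.888 RPKM to 11.3 and 8.25 RPKM, with 11.7 RPKM in GV oocytes. Oog3 ranged from 0.367 and 0.229 RPKM to 70.7 and 61.1 RPKM.

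**Figure D5:**
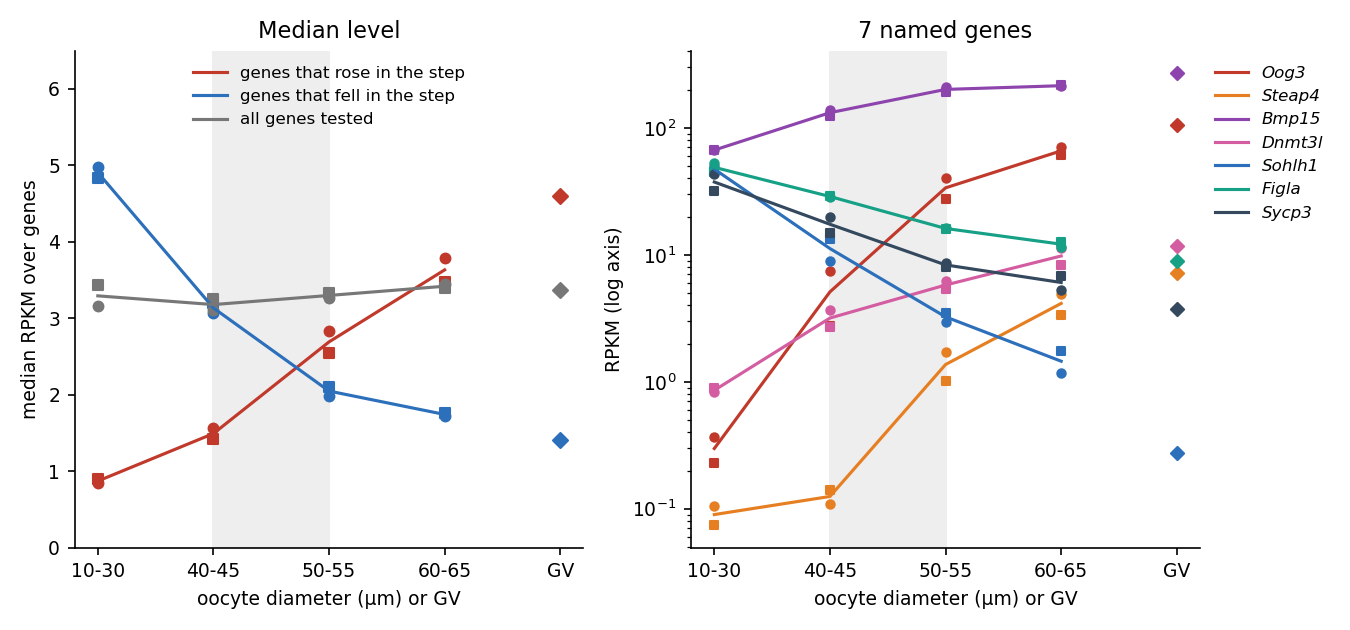
Levels by oocyte size class, with the median RPKM over the risen, fallen and all tested genes on the left (axis from 0) and RPKM of 7 named genes on the right (log axis), 1 point per library and the step shaded. The median of the risen genes goes from 0.851 and 0.895 RPKM at 10–30 μm to 3.79 and 3.48 RPKM at 60–65 μm, and that of the fallen genes from 4.98 and 4.84 to 1.72 and 1.77 RPKM.

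Markers of the oocyte and of other ovarian cells were read in the same libraries. The 12 oocyte markers summed to 3214 and 3643 RPKM at 40–45 μm and to 3141 and 3157 RPKM at 50–55 μm. Of 12 granulosa cell markers 9 were under 0.5 RPKM in all 4 libraries, and Foxl2, Wt1, Inhba and Krt18 were under 0.1. The granulosa markers summed to 3.51 and 3.56 RPKM and then to 6.04 and 5.68 RPKM. The increase lay mainly in Nr5a2 (2.43 and 2.66 to 3.78 and 3.91 RPKM) and in Cyp19a1 (0.266 and 0.227 to 0.502 and 0.515 RPKM), both called as risen. Fshr, Amh, Amhr2, Inha and Kitl were also higher in both 50–55 μm libraries than in both 40–45 μm libraries, at levels between 0.0235 and 0.536 RPKM that left them untested. Of 8 blood, immune and endothelial markers 7 were under 0.5 RPKM, and Pecam1 rose from 1.57 and 1.38 to 3.23 and 2.90 RPKM. The 10 theca and stroma markers summed to 1.84 and 0.778 RPKM and then 0.943 and 0.580 RPKM. The part of other cells in the changes was not tested.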

How the data were processed

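RNA was sequenced by the authors from pooled sorted oocytes as strand-specific, 100 bp paired-end libraries of total RNA. Per the labels, reads were trimmed with Trim Galore 0.2.8 and aligned to GRCm38 with TopHat2 2.0.9, with at most 1 alignment per read. The deposited table, although named as read counts, holds RPKM. The study's methods name Cufflinks and SeqMonk, and which of them made the table is not stated there. RRBS reads were processed by the authors with Trim Galore 0.3.5 and Bismark 0.14.0 into deposited counts of methylated and unmethylated calls per cytosine.

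The values in RPKM were divided by trimmed-mean factors (trimming 30% by ratio and 5% by level), and log2(RPKM + 0.1) was fitted with limma 3.58.1 (R 4.3.3, trend in the variance) with 1 mean per size class over 8 libraries. RPKM printed are as deposited, and log2 differences are on the scaled log2(RPKM + 0.1) scale, which understates changes of low genes. Fits were tested on simulated data. Benjamini-Hochberg adjustment ran over all 9951 tested genes, with a threshold of 0.05. Scaling totals per library were 99400000 to 198000000 reads, read from the steps of low values with exon lengths of the annotation.

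The genes named are the 12 largest rises and 12 largest falls, and the 8 largest gains and losses in RPKM of called genes. Up to 3 risen and 3 fallen genes per list and 14 fixed regulators were named too. The 12 rises and 12 falls had to have a symbol that is no clone or model name and a mean of 1 RPKM in the higher class. Their size classes also had to lie apart, with no overlap of libraries. Nlrp9a, Oog2, Obox5, Hormad1, Syce1, Prdm9, Piwil2 and uncalled list members named beside these were chosen after their values were seen. S1pr3, Htr1d, Tbpl1, Trh and Mcf2 were named for the methylation of their starts. These 5 genes, members of runs of neighbours and genes of the closing lists also fell outside the rules, unless named above by rule. The members and lists were chosen with earlier results of these data known. Methylation was read from cytosines with at least 5 calls. Sequences are from RefSeq (GRCm38.p6). The RRBS libraries of 60–65 μm and the PBAT library were not used here.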

Additional observations from a re-analysis of the deposited data

How the results depend on the processing

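Under the alternatives that kept the 4 libraries of the step, the number of risen genes lay between 348 (at least 1 RPKM) and 533 (no scaling), apart from the replicate block, with 927 risen and 660 fallen genes. The number of fallen genes was 164 with no filter on low values, where 19144 genes were tested, and otherwise 196 to 312. With no filter 74.4% of the calls were rises, compared with 64.0%. The block took library letters A and B as pairs and held all 471 and 265 genes. No label or method says that equal letters mark a shared animal, litter or day, so the block was not the main result. Differences of A and B correlated at 0.688 between the classes of the step, at 0.616 and 0.609 between these and 10–30 μm, and at −0.242, −0.0489 and 0.0878 between 60–65 μm and the other classes. Leaving out 1 library gave 0 to 323 risen and 0 to 89 fallen genes, with 0 called without 40–45 μm library B (lowest adjusted p by limma 0.0761) and without 50–55 μm library A (0.125), where the lone library was assumed to vary like the other classes. The cause was not tested, beyond the smaller number of libraries. The share of rises among calls was 78.4% without 40–45 μm library A and 83.2% without 50–55 μm library B.

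Of 105 named genes, 94 were called. In the fits with the 4 libraries of the step, 866 of their 940 values stayed on the same side of the threshold, 71 were no longer called (41 of these with no filter), 3 became called (Dnmt3b with no scaling, with no trend and under the block) and 0 changed sign. In the fits that left out 1 library, Dnmt1 ran from −0.180 to 0.0526, above 0 without 40–45 μm library B (0.0526) and without 50–55 μm library A (0.0196). Kdm1a ran from −0.159 to 0.0279, above 0 without 40–45 μm library B, and Dnmt3a from −0.0377 to 0.241, below 0 without 50–55 μm library B. None of the 3 genes was called. The median of the kinesin list ran from −0.0405, without 40–45 μm library A, to 0.0718. The median of the Rab trafficking list, −0.0143, changed sign with no scaling (0.00688) and at 1 RPKM (0.000451). With 500 bases around the start in place of 1000, 1 risen gene in place of 2 gained 10 points of methylation, and with 10 calls per cytosine in place of 5, 2 fallen genes in place of 3 did (28 in place of 32 over all tested genes). With 2 libraries per class, small differences were not detectable.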

Other observations

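Genes of the circadian clock, a list drawn up after the values were seen, rose where they were called. Of 20 listed genes 12 were tested, 4 rose and 0 fell (median log2 difference 0.37), where 4.73% of all tested genes rose. Arntl, the activator of the clock, increased from 7.59 and 7.41 to 10.1 and 10.3 RPKM (0.42 ± 0.09). Npas2, its partner, increased from 0.908 and 0.808 to 1.55 and 1.51 RPKM (0.75 ± 0.14), and Nfil3 and Per3 rose by 0.68 and 0.56. Clock was not called (0.26, adjusted p by limma 0.217).

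Of 8 tested genes of the germ line and of pluripotency, also listed after the values were seen, 5 rose and 0 fell, to be read against the same 4.73%. The choice of both lists with the values in view limits what these counts show. Esrrb increased from 2.72 and 3.06 to 4.60 and 5.39 RPKM (0.75 ± 0.17) and Dppa2 from 7.60 and 8.20 to 12.9 and 12.2 RPKM (0.64 ± 0.13). Nanos1 and Nanos2, RNA-binding genes of the germ line, each rose by 0.53, and Klf17 by 0.41. Lin28a (−0.07) and Pou5f1 (−0.21) were not called.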
